A study of Mus musculus with 59 samples.

Results

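MPP3 and MPP4 cells are multipotent progenitors, the cells that stand between the haematopoietic stem cell and the committed progenitors of the blood. They were compared here across all genes, genotype set aside, by taking every library whose name carried MPP3 and every library whose name carried MPP4 in the deposited table that holds both, which gave 4 MPP3 and 4 MPP4 libraries, 8 of the 59 samples of the series. The cells came from bone marrow of C57BL/6 mice 3 weeks post induction (w.p.i.), counted from the end of induction. By the study's gates both were Lin-, c-Kit+, Sca-1+, Il-7Ra-, CD48+ and CD150-, and only Flk2, the product of Flt3, set them apart: MPP3 cells were Flk2- and MPP4 cells Flk2+. By the labels, 2 libraries of each cell type came from Daxx +/+ Cre +/- mice and 2 from Daxx F/F Cre +/- mice. Daxx encodes a chaperone of the histone variant H3.3. Every mouse carried Mx1Cre, a recombinase under a promoter that answers to interferon and is not limited to blood cells, and the study induced it with 3 injections of pI:pC, a double-stranded RNA that raises interferon. No library name carries a genotype, so both genotypes add to the spread within each cell type. The study describes its genomic samples as biological replicates, but the labels tie no library to a mouse, and the p values below measure the spread between these libraries, of whatever origin.

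By textbook knowledge, MPP3 cells mainly give granulocytes and macrophages, and MPP4 cells, also called lymphoid-primed multipotent progenitors, carry the Flt3 receptor and give most of the early lymphoid progenitors. Lymphoid priming means that genes of the lymphoid programme, such as the terminal transferase Dntt, are already transcribed at this stage. Genes of the megakaryocyte and erythroid branch are lost on the same route. In bulk RNA, fewer cells of a type and less RNA per cell cannot be told apart.

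The libraries are called a to d within each cell type, 1 letter for each number in the library names. The labels do not give these numbers. Between 3045852 (MPP3 b) and 17908487 (MPP3 c) reads fell on genes, and between 12200 (MPP3 b) and 26512 (MPP3 d) genes had a read. Across genes, the log2 values of MPP3 d and MPP4 a had a Pearson correlation of 0.95 with each other and of 0.57 to 0.79 with the other 6 libraries, which had 0.83 to 0.96 among themselves. The reads of 3 libraries were not separate. MPP3 d had at least as many reads as MPP4 d in every one of 51810 genes, while in the other 55 ordered pairs of libraries at least 4.37% of the genes detected in the second library had fewer reads in the first. The 6723474 reads by which MPP3 d exceeded MPP4 d were in turn matched or exceeded by MPP4 a in every gene. These are the counts of a library that holds all 10711488 reads of MPP4 d (61.4% of MPP3 d) and a second block of reads (38.6%) that MPP4 a also holds. That block made up 50.3% of MPP4 a and left it 6642715 reads of its own. Kdm5d, a gene of the Y chromosome, shows the sum, with 90 reads in MPP3 d, 20 in MPP4 d and 70 in MPP4 a, and so does Myocd with 589, 0 and 589 reads. In MPP3 a, b and c and MPP4 b and c, Kdm5d had at most 1 read. Uty, also of the Y chromosome, had 193 reads in the block, 10 in MPP4 b and at most 1 in MPP3 a, b and c and MPP4 c. Whether the libraries differ in the sex of the mice was not tested.

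**Figure D1:**
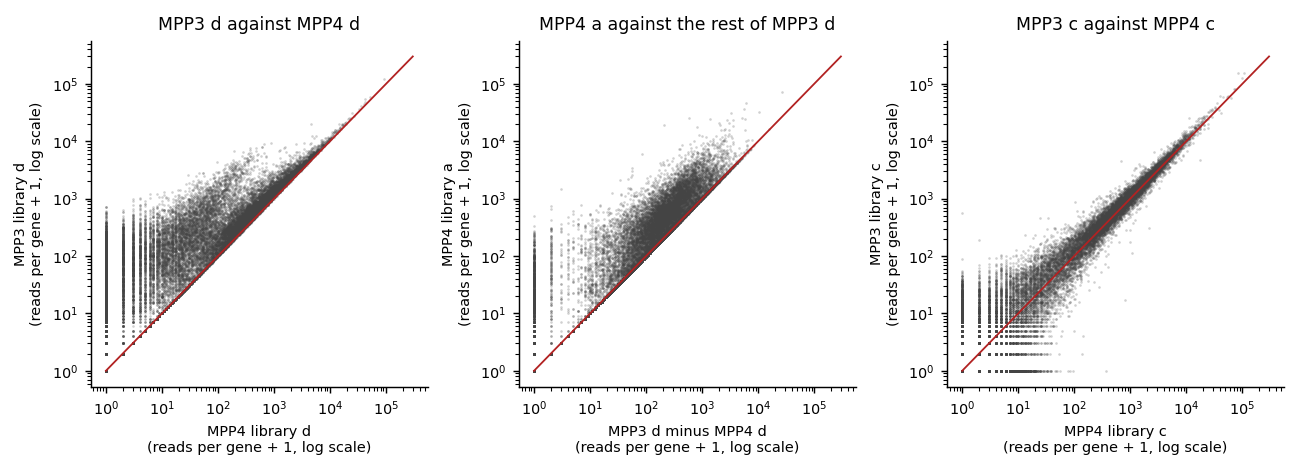
Reads per gene (plus 1, both axes logarithmic) in 3 pairs of libraries, 1 point per gene, with the line of equality in red. No gene lies below the line for MPP3 d against MPP4 d (left) or for MPP4 a against the rest of MPP3 d (middle), whereas MPP3 c against MPP4 c (right) scatters to both sides.

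The reads of MPP4 d and the block shared by MPP3 d and MPP4 a thus stand under both cell types. The block also carried 2930 genes with at least 20 reads in it and at most 2 in any library outside it, together 3.00% of its reads. MPP4 d was set against the means of both cell types. Over the 434 genes (3.17% of those tested) with an unadjusted p under 0.05 between the 5 libraries without shared reads (MPP3 a, b and c against MPP4 b and c), the level of MPP4 d was closer to the MPP3 mean in 341 (78.6%). A share of 3.17% is no more than chance gives at this threshold, so these genes were not shown to separate the cell types. The MPP4 mean also rests on fewer libraries than the MPP3 mean, so picking genes by p can move it further. These counts therefore place no library on either side. MPP3 d, which holds all reads of MPP4 d, was closer to the MPP3 mean in 330 of these genes (76.0%), and the whole of MPP4 a in 303 (69.8%). The own reads of MPP4 a were closer to it in 224 genes (51.6%), with a median position of 0.51 where the MPP4 mean is 0 and the MPP3 mean is 1. Since 2 of the 4 MPP4 libraries are from Daxx F/F mice and no library name says which, cell type and genotype cannot be told apart in the position of a single library. Because of the shared reads, counts over genes are given for all 8 libraries and for the reads that stand under 1 cell type only, called the separate reads: MPP3 a, b and c (n = 3) against MPP4 b, MPP4 c and the own reads of MPP4 a (n = 3). This set was chosen after the values were seen. Genes named here are the members of the gate, lineage and H3.3 lists, the most abundant members of each other list and the genes without overlap given at the end, and any other gene was chosen after its values were seen. Differences are log2 differences of the authors' normalized count plus 1, MPP3 minus MPP4, so that a positive value is higher in MPP3, and are those of the 8 libraries where no set is named. A gene was called at an adjusted p under 0.05 in the limma fit across all genes tested.

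With all 8 libraries, no gene was called as different between MPP3 and MPP4 cells. The p values and SEs of the 8 libraries assume independent groups, but all reads of MPP3 d also stand under MPP4. The lack of calls therefore does not show that the cell types are alike. Of 20137 genes tested, 0 (0%) passed in limma, and 0 passed in edgeR or in DESeq2 run on the recovered reads. At an unadjusted p under 0.05 stood 107 genes (0.531%) in limma, 43 of them higher in MPP3 (0.214%) and 64 higher in MPP4 (0.318%), against 47 in edgeR and 169 in DESeq2. All 4 MPP3 libraries lay above all 4 MPP4 libraries in 30 genes (0.149%) and below them in 58 (0.288%). The median difference of all genes was -0.11, so values near it do not set a gene apart. The smallest adjusted p was 0.999.

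In the separate reads, 2 of 13785 genes were called (0.0145%), Dntt and Arpp21, and both were higher in MPP4 cells. edgeR called the same 2 genes, and DESeq2 called 36, of which 17 were higher in MPP3 and 19 higher in MPP4. Among the 36 were Dntt, Arpp21, Flt3, Satb1, Prg2 and Epx, higher in MPP4, and Apoe and Col4a1, higher in MPP3. A gene written as not called below is one that limma did not call. At an unadjusted p under 0.05 stood 543 genes (3.94%), 303 of them higher in MPP3 (2.2%) and 240 higher in MPP4 (1.74%). The 3 and 3 values did not overlap in 714 genes higher in MPP3 (5.18%) and in 644 higher in MPP4 (4.67%). With MPP4 b or MPP4 c left out, no gene was called, and the 2 calls thus needed both of these libraries. The separate reads also leave out MPP4 d. When MPP4 d was kept and only MPP3 d and MPP4 a were left out, 0 of 14316 genes were called, neither Dntt nor Arpp21. A fit of the separate reads with the shared letters as a block called 1 gene, Dntt, and not Arpp21. In the 5 libraries without shared reads, 2 of 13678 genes (0.0146%) were called, Arpp21, the 1 higher in MPP4 (0.00731%), and Apoe, the 1 higher in MPP3 (0.00731%).

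**Figure D2:**
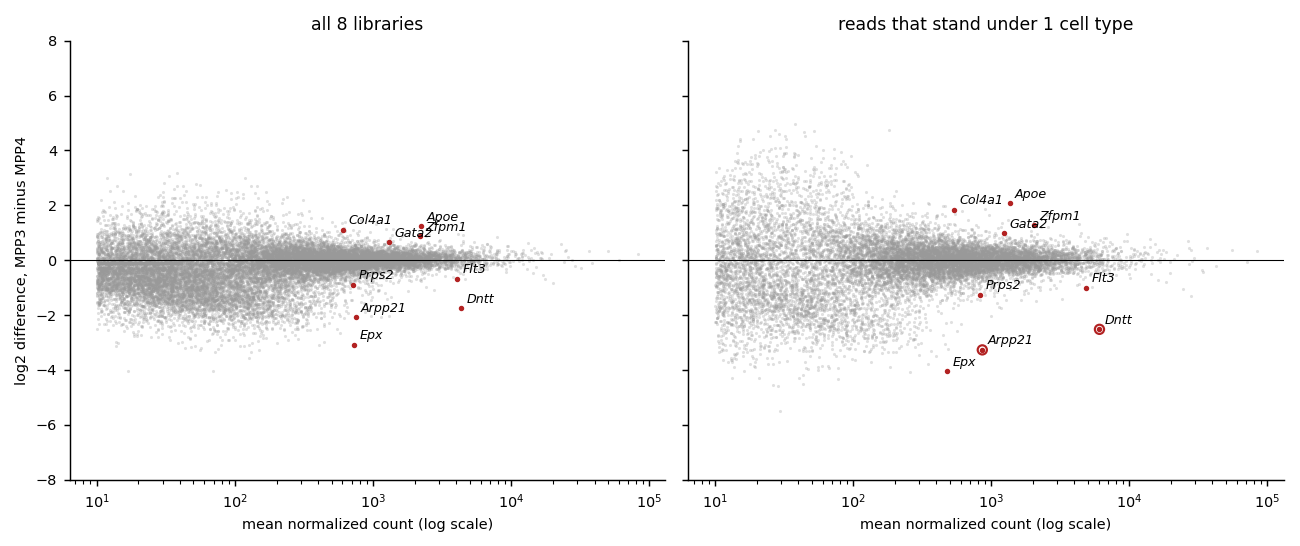
Log2 difference between MPP3 and MPP4 (vertical axis, MPP3 minus MPP4) against the mean normalized count (horizontal axis, logarithmic) for each gene tested, in all 8 libraries (left) and in the separate reads (right). Named genes are red, and the 2 genes called in the separate reads, Dntt and Arpp21, are ringed.

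The antigens of the gates served as a check of the labels. Flt3 (chr5:147330741-147400489, minus strand, mm10), the receptor by which the 2 populations were sorted, had normalized counts of 3333, 3080, 3277 and 2533 in MPP3 a to d and of 4734, 6469, 5734 and 3211 in MPP4 a to d. MPP4 d lay below MPP3 a and c, and the groups overlapped. Its difference was -0.68 (SE 0.24) in 8 libraries. The own reads of MPP4 a gave 7359, and in the separate reads the difference was -1.01 (SE 0.23) with no overlap. The RNA of the Flk2- cells was thus well above 0 in every library. Kit, the stem cell factor receptor, had 4720 to 11522 normalized counts and a difference of 0.42 (SE 0.27), and Cd48 451 to 1142 and -0.06 (SE 0.33), with 0.52 (SE 0.31) and -0.06 (SE 0.37) in the separate reads. Ly6a, which encodes Sca-1, was low in all 8 libraries at 25.8 to 183. Slamf1, which encodes CD150, was at 18.2 to 44.3 in MPP3 a to c and at 0 and 2.60 in MPP4 b and c, but at 161 in MPP3 d and 194 in MPP4 a, the libraries that share a block of reads. Il7r, the interleukin 7 receptor, which the gates left out at the protein level, had 37.1, 0, 16.5 and 58.3 in MPP3 a to d and 137, 89.2, 181 and 28.5 in MPP4 a to d. Here too MPP4 d lay within the MPP3 range, and in the separate reads every MPP4 value was above every MPP3 value (difference -3.93, SE 1.45, not called).

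Of the 8 lineage antigens, which the Lin- gate removes, Ptprc (CD45, present on all white blood cells) was at 3069 to 5481 in every library and Itgam (CD11b) at 263 to 1368. Cd3e and Cd8a, T cell genes, were at 0 in MPP3 a, b and c and MPP4 b, with at most 3.91 in MPP4 c, and at 25.9 to 32.9 in MPP3 d and MPP4 a. Ly6g was listed at 0 in all 8 libraries. None of the 4 lineage antigens that could be tested was called.

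Lymphoid priming genes gave the 2 calls of the separate reads. Dntt (chr19:41029275-41059525, plus strand), the polymerase that adds untemplated bases when antigen receptor genes are joined, had 1433, 1412, 2795 and 1042 normalized counts in MPP3 a to d, and 6414, 9184, 11391 and 1129 in MPP4 a to d. MPP4 a, b and c each exceeded every MPP3 library by more than the MPP3 libraries differed among themselves. MPP4 d lay below MPP3 a, b and c and above only MPP3 d, which holds all reads of MPP4 d. In 8 libraries the difference of Dntt was -1.75 (SE 0.58, unadjusted p = 0.01, not called). The own reads of MPP4 a gave 10252, so that in the separate reads Dntt averaged 1880 ± 792 (SD, n = 3) in MPP3 and 10276 ± 1104 (SD, n = 3) in MPP4, a difference of -2.52 (SE 0.29, adjusted p = 0.00895). Arpp21 (chr9:112065091-112235938, minus strand), which encodes a cAMP-regulated phosphoprotein and hosts a microRNA gene, had 197, 106, 178 and 536 in MPP3 a to d and 1226, 2144, 1426 and 173 in MPP4 a to d. MPP4 d was the one MPP4 library inside the range of MPP3 a, b and c. MPP3 d, which holds the block shared with MPP4 a, was the highest of the MPP3 libraries. The difference of Arpp21 was -2.08 (SE 0.69) in 8 libraries and -3.27 (SE 0.37, adjusted p = 0.00895) in the separate reads, with 1110 in the own reads of MPP4 a.

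**Figure D3:**
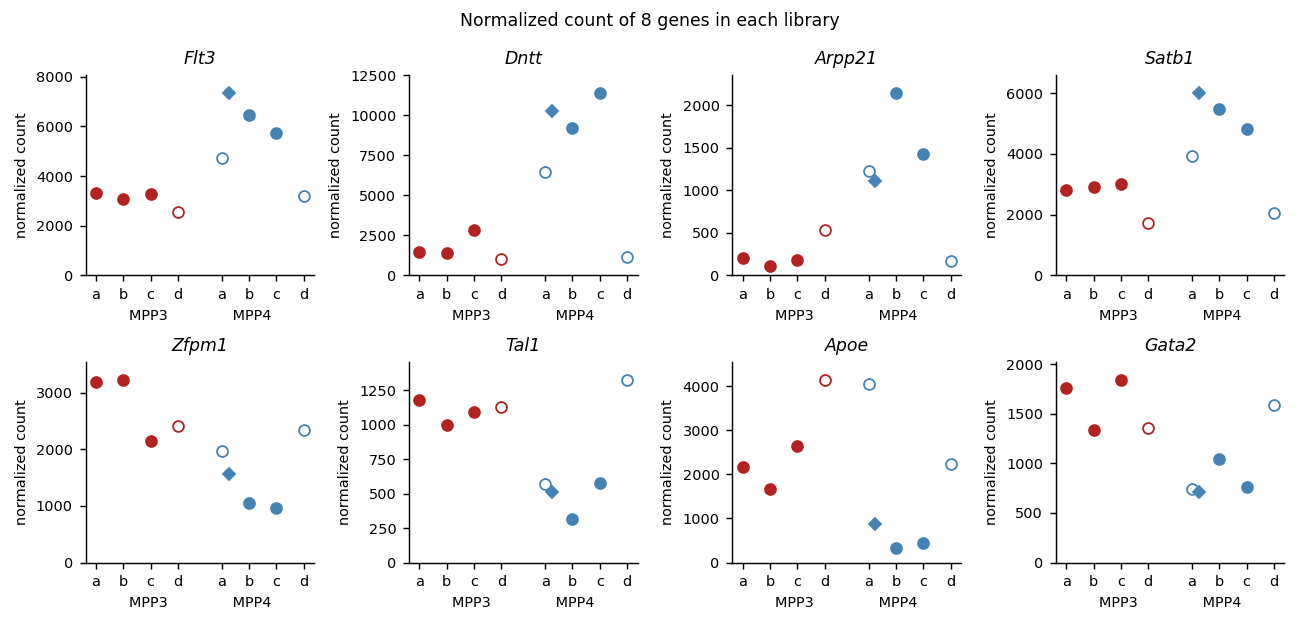
Normalized count (vertical axes, linear from 0) of 8 genes in each library, MPP3 a to d in red and MPP4 a to d in blue. Open circles are the 3 libraries that share reads and diamonds the own reads of MPP4 a. In Dntt, Arpp21 and Flt3, MPP4 d lies near the MPP3 libraries, and in Zfpm1, Tal1, Apoe and Gata2 it lies among or above them.

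Of the 30 genes of the lymphoid priming list, 28 were tested in 8 libraries, with a median difference of -0.24 against -0.11 for all genes, 0 called and 4 at an unadjusted p under 0.05, all higher in MPP4. The separate reads allowed 27 to be tested, with a median of -0.36 against -0.03, 2 called and 7 at an unadjusted p under 0.05, again all higher in MPP4. The 3 MPP4 values lay above the 3 MPP3 values in 9 of these 27 genes, and no gene of the list showed the opposite. Of all genes, 4.67% were without overlap and higher in MPP4, and 5.18% without overlap and higher in MPP3. Higher in MPP4 at an unadjusted p under 0.05 were 0.318% of all genes in 8 libraries and 1.74% in the separate reads. In the separate reads 0.0145% of all genes were called. Satb1, a chromatin organizer of lymphoid cells, had 2803, 2906 and 2998 in MPP3 a, b and c and 6008, 5477 and 4827 in MPP4 a (own reads), b and c, with 1717 in MPP3 d and 2057 in MPP4 d (difference -0.59, SE 0.30 in 8 libraries and -0.90, SE 0.23 in the separate reads, not called by limma). Notch1, the receptor that starts the T lineage, had 1384 to 2169 in MPP3 a to c and 3154 to 4301 in the 3 MPP4 sets of separate reads (-0.69, SE 0.31 in 8 libraries and -1.05, SE 0.25 in the separate reads, not called), and 1383 in MPP4 d. Ighm, from which early transcripts of the heavy chain locus arise, had 498 to 1666 against 2224 to 3812 (-1.07, SE 0.53 and -1.49, SE 0.40 in the same order, not called), but its highest values were those of MPP3 d at 4602 and MPP4 d at 6319. Cnn3, an actin-binding protein, had 3.41 to 252 against 478 to 797 (-3.77, SE 1.12 in the separate reads, not called). The adaptors Blnk and Lck, which act behind the B and T cell receptors, did not overlap in the separate reads either (-3.63, SE 1.45, and -3.23, SE 1.52, not called), and both were at 0 in MPP3 b, the library with the fewest reads.

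The more general lymphoid regulators were not called and went both ways. Ikzf1, or Ikaros, had 6734 to 11241 in MPP3 and 7722 to 10645 in MPP4 (difference -0.13, SE 0.23, and -0.24, SE 0.27 in the separate reads). Tcf3, which encodes E2A, differed by -0.05 (SE 0.23) and Foxo1 by 0.05 (SE 0.43) in 8 libraries, and by -0.10 (SE 0.25) and 0.23 (SE 0.48) in the separate reads. Mef2c, a factor that favours the lymphoid branch, had a difference of -0.28 (SE 0.23) with overlap in 8 libraries and of -0.45 (SE 0.25) without overlap in the separate reads. Gata3 and Id2, factors of T and innate lymphoid cells, had positive differences of 0.73 (SE 0.55) and 0.51 (SE 1.07), and of 1.25 (SE 0.73) and 0.72 (SE 1.21) in the separate reads, with overlap in both sets. None of these 6 genes was called in either set. Rag1 and Rag2 were listed at 0 in all 8 libraries, as were 14 other list genes, and of these 16 genes 10 share exon sequence with another annotated gene. No level is drawn from a listed 0.

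Genes of stem cells stood mostly on the MPP3 side, with no call. Of the 24 genes of the stem cell list, 21 were tested, and 3 had a negative difference in 8 libraries and 2 in the separate reads, where 62.1% and 52.0% of all genes did. The median was 0.58 in 8 libraries and 0.87 in the separate reads. Gata2 (chr6:88193891-88207032, plus strand), a factor of stem and early progenitor cells, had 1763, 1334, 1841 and 1357 in MPP3 a to d and 746, 1042, 762 and 1594 in MPP4 a to d. MPP4 d alone of the MPP4 libraries reached the MPP3 range. Its difference was 0.66 (SE 0.27) in 8 libraries and 0.98 (SE 0.26) in the separate reads, where the values did not overlap. Esam, an adhesion molecule of stem cells, had 123 to 269 in MPP3 a to c and 24.1 to 74.0 in MPP4 b, c and the own reads of a (1.57, SE 0.74 in 8 libraries and 2.03, SE 0.79 in the separate reads). Mycn had 302 to 589 and 39.0 to 266 in the same sets (0.82, SE 0.48 and 1.61, SE 0.68). The values of MPP3 and MPP4 did not overlap in the separate reads in 6 genes higher in MPP3 and in 1 higher in MPP4, Hoxa9 (-0.93, SE 0.41, against -0.66, SE 0.36 in 8 libraries). Of all genes, 5.18% were without overlap and higher in MPP3, and 4.67% without overlap and higher in MPP4.

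The most abundant members of the stem cell list, Hlf, Mecom, Meis1 and Angpt1, depended on MPP3 a. Hlf had 12042 normalized counts in MPP3 a, 2863 to 6219 in the other MPP3 libraries and 2065 to 8307 in MPP4. Mecom had 14956 in MPP3 a and 4677 to 7117 in MPP3 b, c and d, Meis1 15068 and 5076 to 7319, and Angpt1, a ligand of the Tek receptor, 32873 and 10196 to 12536. The 4 genes had differences of 0.53 to 0.67 in 8 libraries, each with an SE of 0.33 to 0.45 and overlapping values. Over the 21 genes of the list, MPP3 a lay 1.29 above the mean of the 5 libraries without shared reads (median, log2) and MPP4 c lowest at -0.80.

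The megakaryocyte and erythroid list had the largest positive median among the 8 lists of cell programmes shown by library, 0.64 over 22 genes in 8 libraries and 1.27 over 20 genes in the separate reads, with no call in either set. In the separate reads, 7 of its 20 genes stood at an unadjusted p under 0.05, all higher in MPP3, and the same 7 were without overlap (Itga2b, Tal1, Zfpm1, Car1, Car2, Apoe and Ermap). Of all genes, 2.2% stood at such a p and higher in MPP3, and 5.18% were without overlap and higher in MPP3. Zfpm1, or FOG1, the partner of GATA1, had 3192, 3226, 2155 and 2416 in MPP3 a to d and 1975, 1047, 969 and 2348 in MPP4 a to d. MPP4 d again overlapped with the MPP3 libraries. The difference was 0.88 (SE 0.30) in 8 libraries and 1.27 (SE 0.27, adjusted p = 0.78) in the separate reads. Tal1, a factor that acts beside GATA1, had 999 to 1180 in the MPP3 libraries and 313 to 576 in MPP4 a, b and c, but 1326 in MPP4 d (0.85, SE 0.35 in 8 libraries and 1.27, SE 0.31 in the separate reads). Itga2b, or CD41, the platelet integrin, had 654 to 942 in MPP3 and 178 to 530 in MPP4 a, b and c, with 661 in MPP4 d (0.89, SE 0.37 and 1.32, SE 0.38). Car2, a carbonic anhydrase of red cells, had 2132 to 3762 in MPP3 and 1070 to 2174 in MPP4 a, b and c, with 4043 in MPP4 d (0.65, SE 0.39 and 1.07, SE 0.27).

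Apoe (chr7:19696109-19699188, minus strand), which encodes the lipid carrier apolipoprotein E and belongs to the same list, had 2179, 1668, 2647 and 4143 in MPP3 a to d and 4044, 326, 445 and 2240 in MPP4 a to d. It was high in every MPP3 library and low only in the 2 MPP4 libraries that share no reads. The own reads of MPP4 a gave 885. Its difference was 1.23 (SE 0.65) in 8 libraries, 2.07 (SE 0.35, adjusted p = 0.30) in the separate reads and 2.48 (SE 0.33, adjusted p = 0.0435) in the 5 libraries without shared reads, where it was called. The globin genes Hba-a1, Hba-a2, Hbb-bs and Hbb-bt, whose copies resemble each other and may trade reads, were at 80.9 to 220 in MPP3 d, 75.5 to 233 in MPP4 a and 36.8 to 130 in MPP4 d. In MPP3 a, b and c and MPP4 b and c they did not exceed 49.3. Levels of this list in MPP3 d, MPP4 a and MPP4 d were 2.59, 2.24 and 2.00 above the mean of the other 5 libraries (median, log2), and that of the own reads of MPP4 a was 0.22. The markers of erythroblasts moved with these 3 libraries, and their part in the differences was not tested.

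**Figure D4:**
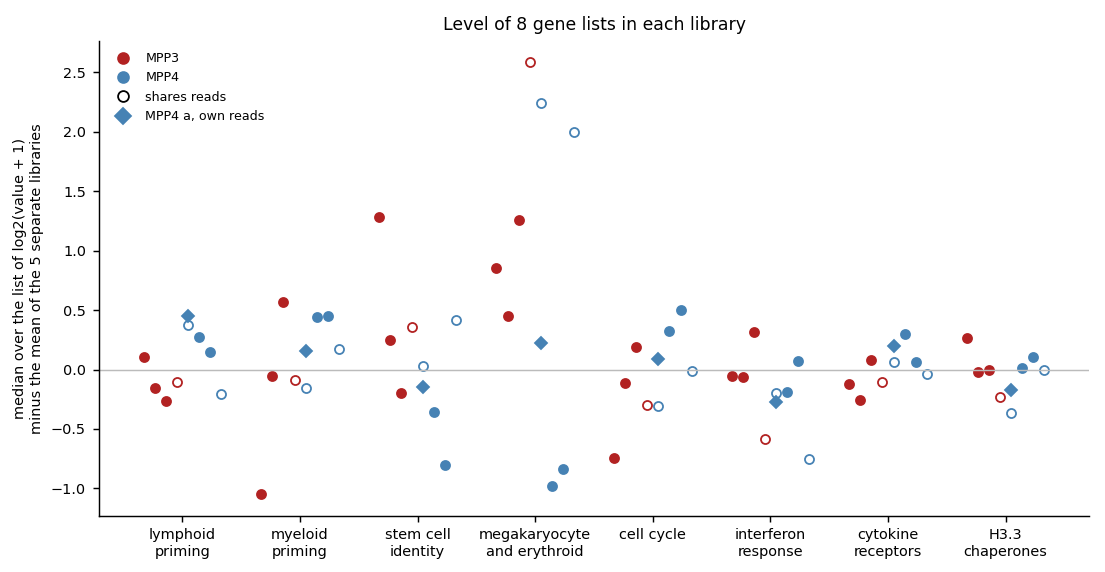
Level of 8 gene lists in each library, as the median over the list of log2(normalized count + 1) minus the mean of the 5 libraries without shared reads (vertical axis). Red is MPP3 and blue MPP4, in the order a to d, open circles are libraries that share reads, and diamonds are the own reads of MPP4 a. The megakaryocyte and erythroid list reads 2.00 to 2.59 in the 3 libraries that share reads, and 0.45 to 1.26 in MPP3 a, b and c against -0.98 and -0.84 in MPP4 b and c.

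Most genes of the myeloid list had a negative difference, although MPP3 is the population named as myeloid. Of 29 genes tested, 22 (75.9%) were negative in 8 libraries, where 62.1% of all genes were, with a median of -0.46 against -0.11 for all genes. In the separate reads 20 (69.0%) were negative against 52.0% of all genes, with a median of -0.50 against -0.03. None was called. Of the 29, 4 stood in the separate reads at an unadjusted p under 0.05, all higher in MPP4 (1.74% of all genes did). In the same set 5 did not overlap, 4 of them higher in MPP4 (of all genes, 4.67% were without overlap and higher in MPP4). Mpo, the peroxidase of neutrophil granules, had 4287, 14474, 20879 and 9880 in MPP3 a to d and 9036, 15253, 16912 and 13376 in MPP4 a to d. The lowest and the highest value both belonged to MPP3, and the difference of -0.32 (SE 0.41) was smaller than its error, with -0.50 (SE 0.48) in the separate reads. Over the list, the level of MPP3 a was lowest at -1.05 and that of MPP3 c highest at 0.56, so that in this median over the list the 2 cell types overlapped. Elane and Ctsg, proteases of the same granules, had differences of -0.75 (SE 0.56) and -0.25 (SE 0.50), and of -1.03 (SE 0.48) and -0.39 (SE 0.53) in the separate reads. Spi1, which encodes Pu.1, had 1255 to 1982 in MPP3 and 1323 to 1922 in MPP4 and differed by -0.06 (SE 0.22) and, in the separate reads, by -0.15 (SE 0.23).

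The receptor genes of the myeloid list went both ways. Csf3r, the receptor of the granulocyte growth factor G-CSF, was the one gene of the list without overlap and higher in MPP3 in the separate reads, with 1479 to 1842 against 1244 to 1310 (0.38, SE 0.23, and 0.29, SE 0.21 in 8 libraries), while MPP4 d had 1679. Csf1r, the receptor of the macrophage growth factor, had 109, 761, 365 and 720 in MPP3 a to d and 1189, 582, 580 and 379 in MPP4 a to d (-0.70, SE 0.55, with overlap in both sets). Cd33, a sialic acid-binding receptor, had 0 to 136 in MPP3 a to c and 341 to 563 in the 3 MPP4 sets of separate reads (-2.91, SE 1.37 in 8 libraries and -4.06, SE 1.49 in the separate reads). The lectin Clec12a had 55.6 to 546 and 625 to 1036 (-1.19, SE 0.62 and -1.62, SE 0.69), and Fcgr3, an Fc receptor, 6.82 to 111 and 123 to 262 (-1.89, SE 0.99 and -2.53, SE 1.08). Among transcription factors, Cebpa, needed for granulocyte and monocyte progenitors, differed by -0.21 (SE 0.34), Gfi1 by 0.20 (SE 0.40) and Irf8, of monocytes and dendritic cells, by -0.73 (SE 0.48), with -0.35 (SE 0.36), 0.20 (SE 0.50) and -1.07 (SE 0.52) in the separate reads. None of these 8 genes was called.

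Genes of eosinophil granules, chosen after their values were seen, were low in MPP3 a, b and c. Prg2, the major basic protein, had 167, 334, 64.7 and 2576 in MPP3 a to d and 1874, 947, 706 and 2424 in MPP4 a to d. Epx, the eosinophil peroxidase, had 68.4, 174, 9.40 and 1390 and then 988, 1114, 526 and 1553, with 982 in the own reads of MPP4 a. MPP3 a, b and c were thus low and every MPP4 library high, MPP4 d included. MPP3 d was high too, and all of its reads also stand under MPP4. The differences in the separate reads were -2.57 (SE 0.52, adjusted p = 0.745) for Prg2 and -4.05 (SE 0.84, adjusted p = 0.753) for Epx. Ear6, a ribonuclease of eosinophils from a family of near copies, had 1.76 to 10.2 in MPP3 a, b and c and 74.0 to 337 elsewhere.

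Cell cycle genes stood mostly on the MPP4 side. Of 33 genes tested, 28 had a negative difference in 8 libraries (median -0.40), where 62.1% of all genes did, and 29 in the separate reads (median -0.64), where 52.0% did. None was called. Without overlap, all higher in MPP4, stood 2 of the 33 genes in 8 libraries and 8 in the separate reads. Of all genes, 0.288% in 8 libraries and 4.67% in the separate reads were without overlap and higher in MPP4. Bub1, a kinase of the spindle checkpoint, had 265, 130, 411 and 427 in MPP3 a to d and 475, 584, 733 and 529 in MPP4 a to d, so that every MPP4 library lay above every MPP3 library (difference -1.04, SE 0.38, and -1.45, SE 0.43 in the separate reads). Ccnb2, cyclin B2, had 372 to 660 in MPP3 and 716 to 948 in MPP4 (-0.56, SE 0.26 and -0.82, SE 0.31). Mki67, the proliferation marker Ki67, had 8487 to 18339 in MPP3 and 14066 to 27321 in MPP4 (-0.54, SE 0.30 and -0.78, SE 0.36). The G1 kinase gene Cdk6 (0.07, SE 0.28) and the replication licensing gene Mcm3 (-0.02, SE 0.25) had differences smaller than their errors. MPP3 a had the lowest level of the list at -0.74, and MPP4 c the highest at 0.50.

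A pair of histone genes, for which no list was drawn up, were examined singly. Hist1h2bc, an H2B gene, had 915 to 1738 in MPP3 and 1803 to 2783 in MPP4 without overlap (-0.72, SE 0.25). Hist1h3f, an H3 gene named after its values were seen, had 269, 505, 965 and 596 in MPP3 a to d and 1184, 1988, 1304 and 731 in MPP4 a to d (-1.21, SE 0.38). MPP4 d overlapped with MPP3 in the second gene and not in the first. Histone genes of these clusters are near copies of each other, and reads may have been shared among them.

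Interferon-response genes, which matter here because induction itself works through interferon, stood mostly on the MPP3 side, within the spread of the libraries. Of 29 genes tested, 21 had a positive and 8 a negative difference in 8 libraries (27.6% negative against 62.1% of all genes, median 0.22), and 20 and 9 in the separate reads (31.0% against 52.0%, median 0.27), none called. The lowest level of the list was that of MPP4 d at -0.76 and the next that of MPP3 d at -0.59, while MPP3 c lay highest at 0.31. Oasl2, an antiviral protein, had 949, 1241, 1228 and 444 in MPP3 a to d and 451, 579, 913 and 504 in MPP4 a to d (0.60, SE 0.35, and 0.77, SE 0.29 in the separate reads). Gbp3, a guanylate-binding protein, was highest in the libraries with the letter c, at 2805 in MPP3 and 2152 in MPP4. Ddx58, the RNA sensor RIG-I, differed by 0.47 (SE 0.25), and by 0.62 (SE 0.27) in the separate reads. Of the 29 genes, 5 did not overlap in the separate reads, all higher in MPP3 (5.18% of all genes were), and MPP3 d lay within or below the MPP4 range in each of Oasl2, Ddx58 and Gbp2.

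Of 22 cytokine receptor genes tested, 14 (63.6%) had a negative difference in 8 libraries, near the 62.1% of all genes, and 15 (68.2%) in the separate reads against 52.0%, none called. The medians were -0.20 and -0.35, with all genes at -0.11 and -0.03. Besides Flt3, the unadjusted p in 8 libraries was under 0.05 for Il6st, a signal chain shared by several receptors, with 488 to 989 in MPP3 and 795 to 1536 in MPP4 (-0.70, SE 0.29, and -0.98, SE 0.32 in the separate reads), and Cxcr4, the receptor that holds cells in the marrow, with 259 to 553 and 471 to 969 (-0.85, SE 0.34 and -1.18, SE 0.36). Both had overlapping values in 8 libraries and none in the separate reads. Ifnar1 and Ifnar2, the receptor chains for the interferons raised by induction, differed by -0.42 (SE 0.28) and -0.30 (SE 0.21), and by -0.57 (SE 0.33) and -0.48 (SE 0.24) in the separate reads, where Ifnar2 did not overlap.

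The difference of Daxx, the gene deleted in the F/F mice, was smaller than its error. Daxx (chr17:33909414-33915590, plus strand) had 477, 249, 161 and 470 in MPP3 a to d and 299, 194, 92.4 and 556 in MPP4 a to d, a difference of 0.40 (SE 0.54), and of 0.57 (SE 0.59) in the separate reads. Reads outside the deleted exons count towards this sum, and no library was assigned to a genotype from it. Of the 10 genes of H3.3 and its chaperones, 9 were tested, the median difference was 0.06 in 8 libraries and 0.03 in the separate reads, and none was called. Atrx, the partner of Daxx, had 5946 to 10673 in MPP3 and 4684 to 7863 in MPP4 (0.30, SE 0.26). Hira, of the other H3.3 deposition complex, had 152 to 231 and 137 to 212 (0.10, SE 0.40), and its partners Ubn1, Ubn2 and Cabin1 differed by 0.30 (SE 0.25), -0.25 (SE 0.33) and 0.00 (SE 0.19). Asf1b, a chaperone that rises with replication, differed by -0.68 (SE 0.55). Of the genes that encode H3.3 itself, H3f3b had 2433 to 3585 and 1750 to 3465 (0.06, SE 0.25) and H3f3a 196 to 624 and 230 to 740 (-0.40, SE 0.45). Asf1a was listed at 0 in all libraries.

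The study drew its own 2 lists of myeloid and lymphoid regulators on these samples, so their direction is not independent evidence. Of 12 myeloid genes, 5 had a positive and 7 a negative difference (median -0.13), and of 12 lymphoid genes, 4 and 8 (median -0.11), with all genes at -0.11. None was called in any set. At an unadjusted p under 0.05 in 8 libraries stood 1 gene of each. They were Gata2, higher in MPP3 (0.214% of all genes), and Flt3, higher in MPP4 (0.318% of all genes). Runx1, which is needed to form blood stem cells, had 12887 to 32240 in MPP3 and 15081 to 20959 in MPP4 (0.21, SE 0.30), and Myb 5173 to 7253 and 4450 to 6783 (0.17, SE 0.22). The B cell factors of the lymphoid list were highest in the 2 libraries that hold the shared block of reads. Pax5 had 917 in MPP3 d and 1151 in MPP4 a, 117 in MPP4 d and at most 9.49 in every other library. Ebf1 had 1546 and 2050 in the same 2 libraries and 10.7 to 423 in the other 6. In the own reads of MPP4 a, Pax5 was at 9.0 and Ebf1 at 58.5.

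Genes whose 4 and 4 libraries did not overlap, with the lowest unadjusted p and a mean of at least 50, were named in each direction, and none of the 20 was called. Among those higher in MPP3 were Col4a1, a collagen of basement membranes, Tnks1bp1, Tfr2, Rnf214, Rarg, Llph, Mdfi, Trim30b and Sec11a, with differences of 0.40 to 2.44. Col4a1 had 1131, 600, 783 and 724 in MPP3 a to d and 597, 192, 278 and 543 in MPP4 a to d (1.12, SE 0.37). Its lowest MPP3 and highest MPP4 libraries were nearly level, and in the separate reads the difference was 1.84 (SE 0.36, adjusted p = 0.716). Tfr2, a transferrin receptor of the erythroid branch, had 529 to 604 in MPP3 and 169 to 514 in MPP4 (0.87, SE 0.36), and Rarg, a retinoic acid receptor, 193 to 549 and 125 to 193 (0.95, SE 0.43). Higher in MPP4 were Prps2, Hist1h2bc, Glipr1, Bub1, Emb, Mier3, Kif4, Cd180, Reep4 and Elk4, with differences of -0.51 to -1.04. Prps2, an enzyme that makes the sugar phosphate of nucleotides, had 403, 471, 605 and 510 in MPP3 a to d and 686, 1271, 1110 and 711 in MPP4 a to d (-0.89, SE 0.27, and -1.27, SE 0.28 in the separate reads). Kif4, a motor of the mitotic spindle, had 467 to 927 and 944 to 1443 (-0.67, SE 0.26), and Cd180, a receptor best known on B cells, 133 to 539 and 540 to 998 (-1.03, SE 0.42). In Kif4 and Cd180 the lowest value was that of MPP3 b, and the lowest MPP4 value that of MPP4 d, close to MPP3 d, which holds all reads of MPP4 d.

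Markers of other blood and stromal cells were summed per library. MPP3 d and MPP4 a held the 2 highest sums in 7 of 8 marker lists. The 9 erythroblast markers summed to 1884 in MPP3 d, 1604 in MPP4 a and 1099 in MPP4 d, and to 28.6 to 156 in the other 5 libraries, with 138 in the own reads of MPP4 a. The 11 macrophage markers summed to 4314, 3907 and 3122 in the same 3 libraries and to 419 to 1585 elsewhere. The 22 markers of B and plasma cells summed to 4719 in MPP3 d and 5626 in MPP4 a, against 1333 to 2256 in the other 6 libraries, MPP4 d included. Late neutrophils (493 to 3251), basophils and mast cells (403 to 2663), T and NK cells (215 to 1583) and endothelial and stromal cells (111 to 3156) had the same 2 libraries on top. Sums of dendritic cell markers, which include Tcf4 and Ccr9 of the lymphoid list, spanned 2665 to 5374. These sums did not set MPP3 d and MPP4 a apart, but Tcf4 alone, at 2549 to 5251, made up most of each. Ccr9, Siglech, Itgax and Zbtb46 of the same list were each highest in MPP3 d and MPP4 a. Zbtb46 had 345 and 384 there, against 3.41 to 112 in the other 6 libraries. Cd209a did not exceed 0.92 in any library, and the other 3 markers were listed at 0. The defining markers Alas2, Ms4a1, Igkc, Xcr1 and Ly6g were listed at 0 in all 8 libraries. In the separate reads MPP3 and MPP4 overlapped in 7 of the 8 sums. The exception was that of B and plasma cells, with 1333 to 1879 in MPP3 a, b and c and 2008 to 2256 in MPP4 b, c and the own reads of a, beside which stand the differences of the lymphoid genes. No marker of any of the 8 lists was called. The part of these cells in the differences between MPP3 and MPP4 was not tested.

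**Figure D5:**
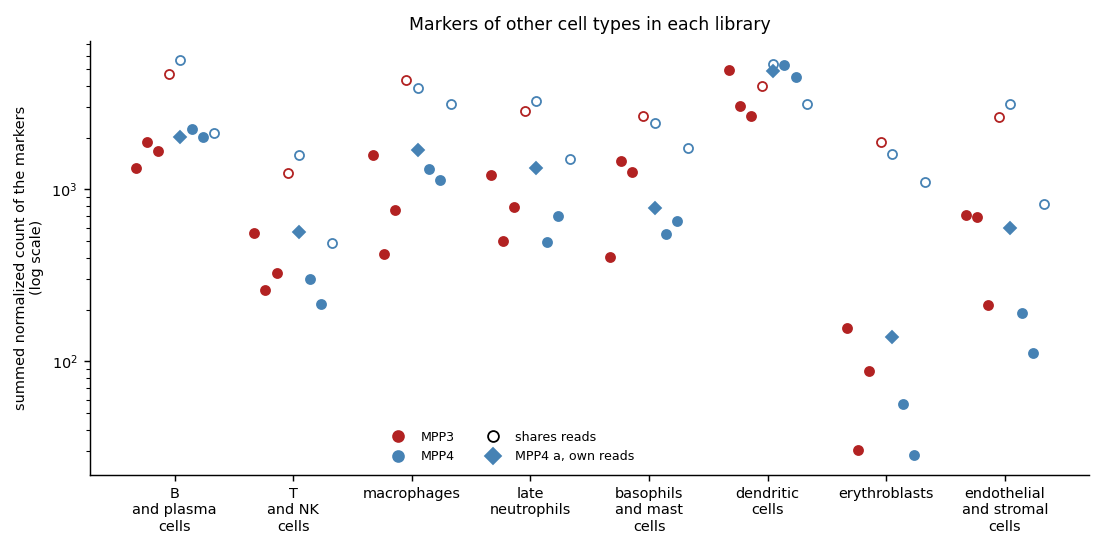
Summed normalized count of the markers of 8 other cell types in each library (vertical axis, logarithmic), MPP3 in red and MPP4 in blue in the order a to d, with open circles for libraries that share reads and diamonds for the own reads of MPP4 a. Erythroblast markers sum to 1099 or more in the 3 libraries that share reads and to at most 156 in the others.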

How the data were processed

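Sorted MPP3 and MPP4 cells (n = 4 libraries each) were measured by RNA-seq. The deposited signal is the authors' normalized count: the reads of a gene, on mm10, over the size factor of the library. The submitters' processing notes name CASAVA 1.8.4, cutadapt 1.13, STAR 2.5.3 and DESeq2 1.16.1, and the use of strand is not given in the sources used here. The labels give Trizol and the Ovation SoLo kit, the study's methods a column and another kit, so the kit is not settled. Dividing each column by its smallest value gave whole reads within 0.01 for 100% of values, and these reads gave the depth (3045852 to 17908487 per library). It limits low genes most in MPP3 b.

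Genes with a mean of 10 or more were tested on the scale log2(value + 1) by limma 3.58.1 in R 4.3.3, its prior variance following the mean. On this scale the added 1 lowers the difference of a low gene, but a single value of 0 can enlarge it. Cd33, at 0 in MPP3 b, had means of 83.9 (MPP3) and 429 (MPP4) in the separate reads. Its difference of -4.06 is larger than the ratio of these means gives. The Benjamini-Hochberg adjustment ran over all genes tested. The separate reads of MPP4 a were put on the authors' scale by the median ratio to the 5 libraries without shared reads. This design was written for any unit of the table and kept. Lists and libraries were chosen with earlier results of these data known, and study lists were drawn by the study on these samples. Named by rule were up to 10 genes per direction without overlap and with a mean of 50 or more, all gate, lineage and H3.3 genes, the 4 most abundant members of each other list, and the study lists. Some of these genes are not reported here. Positions are those of GENCODE on GRCm38. edgeR 4.0.16 and DESeq2 1.42.0 were run on recovered reads as alternatives. The fits were tested on simulated data. The 103 other columns of values per sample, in 17 files, were not used.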

Additional observations from a re-analysis of the deposited data

Results flagged for a closer look

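Within each cell type, sets of 4 libraries were examined, 188 in all (every named gene tested, each marker sum, the genes detected and the reads on genes). In 11 of them (5.85%) 1 library stood far from the other 3, about as many as the 1 in 20 that chance gives. MPP3 b, the library with the fewest reads, accounted for 4 of the 11. Among the MPP3 libraries, Mdfi was highest in MPP3 b at 351, and Kif4, Cd180 and Gfi1b were lowest there at 467, 133 and 136. Cebpa was highest in MPP3 c at 1327 and Pax5 highest in MPP3 d at 917. Among the MPP4 libraries, Trim30b was at 0 in MPP4 b, Gbp3 highest in MPP4 c at 2152, Gata3 lowest in MPP4 c at 68.4 and H3f3b lowest in MPP4 a at 1750. The summed markers of B and plasma cells were highest in MPP4 a at 5626. The values of Pax5 in MPP3 d and of the B and plasma cell markers in MPP4 a lie in libraries that share a block of reads.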

How the results depend on the processing

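With all 8 libraries, 0 genes were called under every alternative: TMM, a shift by the median log ratio, pseudocounts of 0.5 and 8, other filters, edgeR, DESeq2, sample quality weights, no trend, and each library left out (0 to 0 calls, 22 to 524 genes at an unadjusted p under 0.05). A fit with the shared letters as a block also called 0. All of these fits but the one without MPP3 d keep reads that stand under both cell types. They thus share this limit of the main fit. Whether the letters pair the libraries is not settled. Deviations of same-letter libraries correlated at -0.36, 0.46, 0.56 and 0.20 in 8 libraries, but the shared reads enter these values. In the separate reads they correlated at only 0.03 to 0.20, although each MPP3 library correlated best with its own letter. There the block called 1 gene, Dntt, and no longer Arpp21. Alternatives chosen after seeing the data called 2 genes without the 3 libraries that share reads (edgeR 1), 0 without MPP3 d and MPP4 a, and 2 in the separate reads. In the separate reads, edgeR, TMM and a pseudocount of 8 each called 2, sample quality weights 8 and DESeq2 36 (17 higher in MPP3), and leaving out each library called 0 to 6, with 0 without MPP4 b or MPP4 c and 6 without MPP3 b. Over all lists, 2 members were called in the separate reads (Dntt, -2.52, and Arpp21) and 2 without the libraries that share reads (Arpp21 and Apoe, 2.48). The median of the gate antigens moved from -0.01 to -0.42 without MPP4 a, -0.51 without the 3 libraries and -0.28 without MPP3 d and MPP4 a, and that of the cytokine receptors from -0.20 to -0.34 and -0.35. Of 1921 values of 84 named genes, 94, in 26 genes, had the other sign, none of them called. Recovered reads cover counting only, and depth limits low genes in MPP3 b and MPP4 b.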
